A study of Homo sapiens with 6 samples.

Results

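The mitotic spindle kinesins described here are 10 genes, KIF11, KIF14, KIF15, KIF18A, KIF18B, KIF20B, KIF22, KIF2C, KIFC1 and CENPE. They were chosen by name, as the rows with exactly these symbols in the authors' count tables. All 10 were found, among 41471 gene symbols in the knockdown table and 34157 in the rebastinib table. The cells were MDA-MB-231, a human line of triple-negative breast cancer, which lacks the estrogen and progesterone receptors and an excess of ERBB2. In the knockdown experiment the cells stably carried a lentiviral scramble shRNA, CDK16-sh1 or CDK16-sh2, hairpin RNAs of which the last 2 are directed against CDK16, in a vector with GFP by which infected cells were sorted. In the rebastinib (Reb) experiment cells without a hairpin were treated for 48 h with the solvent DMSO, with 1 µM or with 5 µM Reb, a kinase inhibitor that the study used against CDK16. Each of the 6 conditions is represented by 1 library of stranded mRNA, and the differences below have no replicate check.

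Kinesins are motor proteins that use ATP to walk along microtubules or to shorten them. In mitosis they push the spindle poles apart, gather microtubule minus ends into poles, carry chromosomes to the spindle equator, trim microtubule plus ends and finish the division into daughter cells. Most mitotic kinesins are made late in the cell cycle, when the MuvB complex with B-MYB and FOXM1 activates their promoters. In resting cells the same complex, as DREAM with a pocket protein and E2F4, represses them. A short DNA element, the cell cycle genes homology region (CHR), and the CCAAT box bound by NF-Y mark many promoters of this class. The study asked how loss or inhibition of CDK16 affects proliferation and the spindle. The comparison made here is that of each kinesin transcript with its own control.

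The promoters of the members show which of these elements the group carries. Windows from 250 bases before to 50 bases after the annotated start were taken from RefSeq (GRCh38.p14), which held all 10 members, and searched on both strands for the CHR (TTTGAA or TTCGAA), the CCAAT box (CCAAT) and E2F letters (TTTGGCGC, TTTCCCGC, TTTCGCGC or TTCCCGCC). The stretches from base −90 to base 10 around the start, which counts as base 1, are shown for 7 members, with motif matches in capitals: the 3 of the members with the lowest relative level at 5 µM that have a match, KIF11 and KIF22 as members further down, KIF15 as the member with E2F letters, and CENPE as a member without any match.
KIF18B (chr17:44947764-44947863, minus strand): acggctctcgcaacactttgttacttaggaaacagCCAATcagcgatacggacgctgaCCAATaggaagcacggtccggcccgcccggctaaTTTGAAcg
KIF14 (chr1:200620742-200620841, minus strand): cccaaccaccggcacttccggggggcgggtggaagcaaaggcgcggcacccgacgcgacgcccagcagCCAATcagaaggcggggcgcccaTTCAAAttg
KIFC1 (chr6:33391733-33391832, plus strand): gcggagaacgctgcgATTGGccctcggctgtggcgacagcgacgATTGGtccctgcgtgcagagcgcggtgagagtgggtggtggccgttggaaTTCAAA
KIF11 (chr10:92593040-92593139, plus strand): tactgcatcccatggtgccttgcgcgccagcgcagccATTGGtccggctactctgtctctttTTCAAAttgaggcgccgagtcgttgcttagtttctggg
KIF15 (chr3:44761704-44761803, plus strand): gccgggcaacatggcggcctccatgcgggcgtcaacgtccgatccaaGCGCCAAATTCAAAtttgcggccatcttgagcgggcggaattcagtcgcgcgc
KIF22 (chr16:29790661-29790760, plus strand): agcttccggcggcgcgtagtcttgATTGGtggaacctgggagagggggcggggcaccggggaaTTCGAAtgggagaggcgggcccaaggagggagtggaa
CENPE (chr4:103198334-103198433, minus strand): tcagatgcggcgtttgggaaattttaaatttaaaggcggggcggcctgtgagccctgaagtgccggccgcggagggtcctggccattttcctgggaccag
The CHR letters stood in 8 of 10 member windows, against 16.6% of 27305 promoters. The CCAAT letters stood in 7 of 10, against 35.7%, and both together in 7 of 10, against 6.58%. The E2F letters stood in KIF15 alone, from base −43 to −36, directly before its CHR, and in 5.07% of all promoters. KIF2C and CENPE held none of the 3 in this window. In KIF14, KIF18B and KIFC1 the CHR began at bases 2, 3 and 5 from the RefSeq start, and in KIF11 and KIF22 at −28 and −27. The genes as counted have other starts than RefSeq. As counted, KIF11, KIF14 and KIF18B begin downstream of the stretches shown, and KIFC1 begins upstream of its stretch. Between the CHR and the nearest CCAAT box lay 18 bases in KIF14, 20 in KIF11, 29 in KIF18B, 30 in KIF18A, 34 in KIF22, 45 in KIFC1 and 117 in KIF20B. No 2 matches of different motifs overlapped. Among 41 promoters of other G2/M genes found in the same table the CHR letters stood in 31, and among 19 promoters of transport and other kinesins in 1. These are matches of letters, and binding was not measured.

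**Figure D1:**
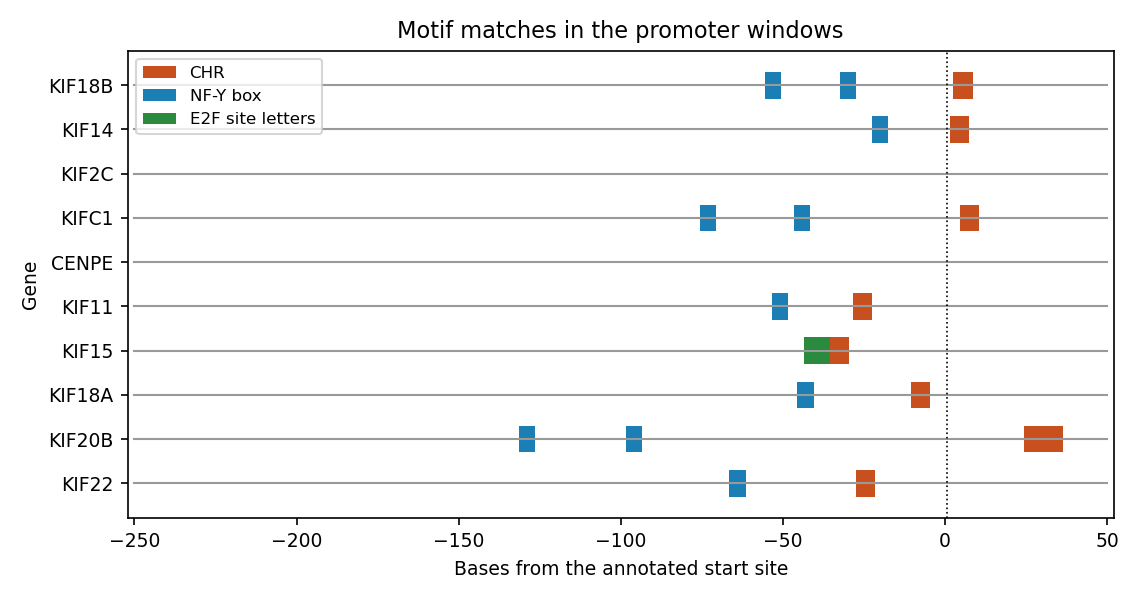
Matches of the CHR, the CCAAT box (labelled NF-Y box) and E2F letters in the promoter window of each kinesin. The x axis gives bases from the annotated start site (dotted line), each grey line is one gene, and genes are ordered by their change at 5 µM Reb with the lowest on top; in 8 of 10 genes a CHR lies between 35 bases before and 36 bases after the start, and KIF2C and CENPE have no match.

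Total counts ranged from 25838443 to 50303269 per library. The targeted gene CDK16 had 3223 counts with the scramble shRNA. It had 1360 with CDK16-sh1 and 846 with CDK16-sh2, or −1.52 and −1.82 as log2 fold changes, lower in both libraries labelled as knockdown. With Reb it differed by −0.14 and 0.27. The 7 markers of the mesenchymal-like line that were checked (VIM, CD44, AXL, MSN, FSCN1, CAV1, ANXA1) were detected in every library, with median RPKM between 45.4 and 121. Log2 fold changes of the 7 extended from −0.89 to 0.74 with CDK16-sh1 and from −0.68 to 0.56 with CDK16-sh2. With Reb they extended from −0.70 to 0.26 at 1 µM and from −2.07 to 1.06 at 5 µM. CAV1 had 26.7 RPKM in DMSO, 23.6 at 1 µM and 3.95 at 5 µM. MSN had 311 RPKM in the scramble library, 164 with CDK16-sh1 and 399 with CDK16-sh2. Given next are 5 markers that moved the same way in both treated libraries of an experiment. With the hairpins CAV1 was at −0.31 and −0.68 and AXL at −0.08 and −0.17. VIM was at 0.39 and 0.28 and FSCN1 at 0.74 and 0.19 there. With Reb AXL was at −0.70 and −0.41, VIM at −0.68 and −0.30 and ANXA1 at 0.24 and 1.00. ESR1, PGR, CDH1 and FOXA1 were at 0 to 0.207 RPKM, whereas ERBB2 was detected at 2.56 to 6.54 and GATA3 at 0.596 to 3.75 RPKM, ERBB2 with 0.20 and 0.28 with the hairpins on the log2 scale. Markers of leukocytes, endothelium, fibroblasts and fat summed to 1.64 to 3.42 RPKM. Mitochondrial transcripts took 16.4% of the counts at 5 µM Reb against 7.19% in DMSO, and 16.2% in CDK16-sh2 against 11.3% in the scramble library. The part of this shift in the results below was not tested.

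In the control cells every member was well covered, from 803 counts for KIF18A in the scramble library to 16287 for KIFC1 in DMSO. Levels between genes are given per length, as the authors' RPKM (counts scaled by exon length and library total), whose 2 tables were made separately. In the scramble library KIFC1, the minus-end motor, stood highest with 61.7 RPKM and KIF2C, the main microtubule depolymerase, next with 51.4. KIF11 had 25.3, KIF22 24.2, KIF18B 20.0, KIF20B 12.9, KIF15 12.2, CENPE 12.1, KIF14 6.78 and KIF18A 6.66 RPKM. The counting intervals of 4 neighbouring pairs in this order overlapped, KIF11 with KIF22, KIF20B with KIF15, KIF15 with CENPE, and KIF14 with KIF18A. In DMSO KIFC1 had 96.8 RPKM and KIF2C 57.8, again above all others. Then came KIF11 at 27.8, KIF15 at 24.2, CENPE at 22.2, KIF22 at 20.7, KIF20B at 19.1, KIF18B at 14.6, KIF14 at 13.9 and KIF18A at 5.27, and only the intervals of KIF18B and KIF14 overlapped. The highest member thus exceeded the lowest by 9.26 times in the scramble library and by 18.4 times in DMSO. At 5 µM Reb the order was another one: KIFC1 12.5, KIF22 10.3, KIF20B 8.85, KIF15 6.99, KIF11 6.02, KIF2C 4.97, CENPE 3.21, KIF18A 1.68, KIF14 0.755 and KIF18B 0.405 RPKM, with no overlap between neighbours and 30.9 times between the ends.

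**Figure D2:**
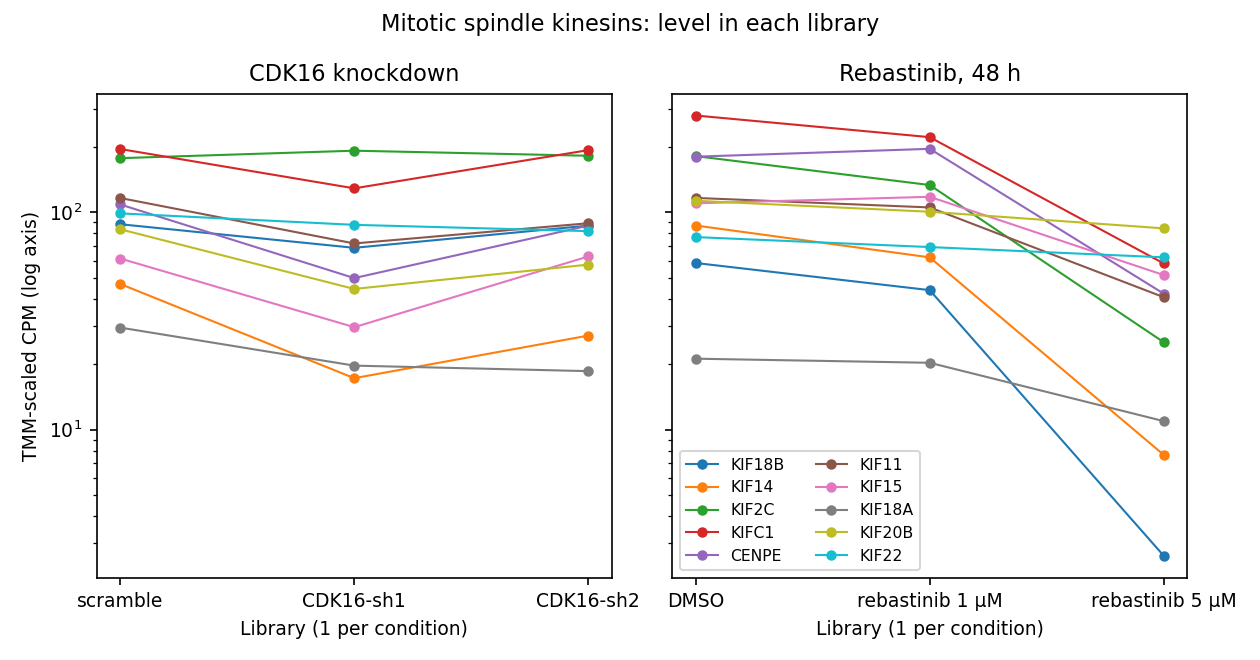
Level of each kinesin in each library, as CPM (counts scaled to library size, here adjusted by the trimmed mean of M-values, TMM) on a log axis, with the knockdown experiment on the left and the Reb experiment on the right (1 library per condition, lines join the same gene). The 2 experiments were scaled separately. From 1 to 5 µM Reb the lines spread apart, with KIF18B falling to 2.62 and KIF20B staying at 84.4.

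Treatment with 5 µM Reb left all 10 kinesins below DMSO, by very unequal amounts. KIF18B was 22.0 times lower, KIF14 11.3 times, KIF2C 7.18 times, KIFC1 4.80 times and CENPE 4.27 times, whereas KIF20B and KIF22 were 1.34 and 1.24 times lower. At least 2-fold lower were 7 of 10 members, against 27.2% of the 15655 genes tested, and 0 of 10 were at least 2-fold higher, against 23.6%. The median log2 fold change of the members was −1.81 and that of all tested genes −0.07. CPM of the members summed to 1225 in DMSO, 1072 at 1 µM and 386 at 5 µM, or 87.5% and 31.5% of the control. In RNA from whole cultures, fewer cells in mitosis and less of a transcript per cell cannot be told apart. Fold changes are on the log2 scale of TMM-scaled CPM with a prior count of 2, and the 95% intervals (Clopper-Pearson, from the counts of the 2 libraries) cover counting error only. Under library totals the median of all genes at 5 µM moved to −0.75 and that of the members to −2.50, so that the members lay 1.74 below all genes under either scaling. Library totals lower every value at 5 µM by 0.69, which turns the sign of those named below that lie between 0 and 0.69 (PRC1, KIF23, KIF2A, HN1, NFYB) and of CDK16. This scaling puts KIF18A, KIF20B, KIF4A, KIFC3 and FOXM1 past 2-fold lower and takes KIF21A and LBR below 2-fold higher. It leaves 9 of 10 members at least 2-fold lower, against 43.4% of all genes, and 0 higher, against 11.7%.

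**Figure D3:**
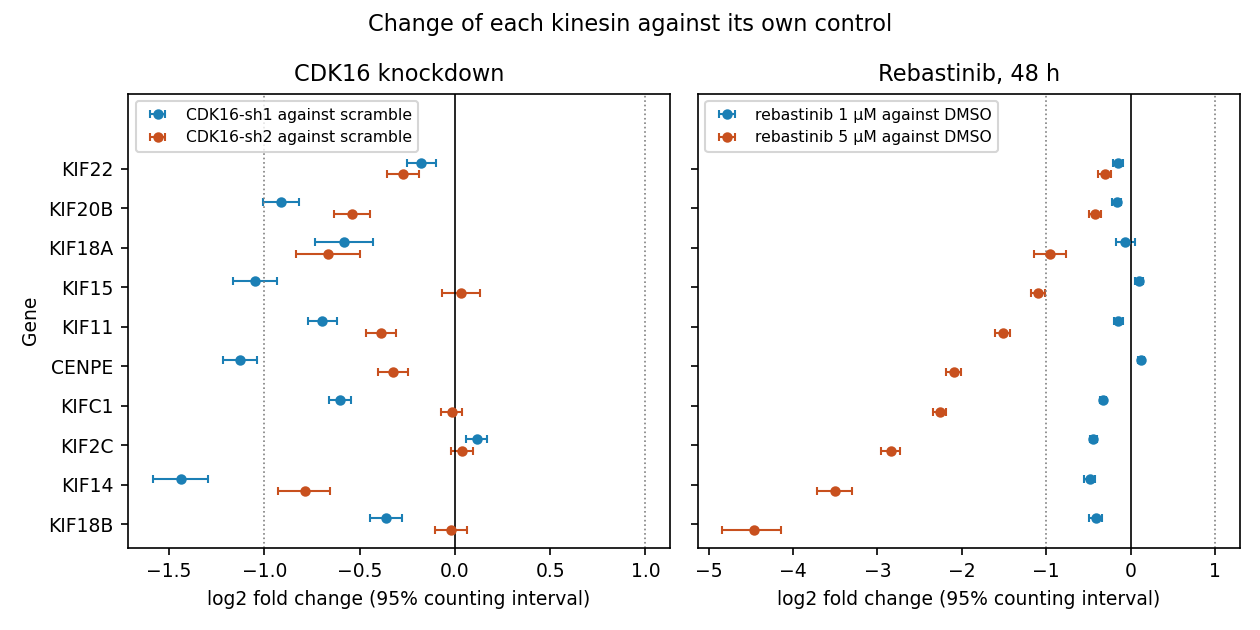
Log2 fold change of each kinesin against its own control, with 95% intervals that cover counting error only, for CDK16-sh1 and CDK16-sh2 against scramble (left) and for 1 and 5 µM Reb against DMSO (right). Dotted lines mark 2-fold. At 5 µM the genes extend from −4.46 (KIF18B) to −0.31 (KIF22), while at 1 µM all lie between −0.49 and 0.12.

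The motors that shape the bipolar spindle were KIF11, KIF15 and KIFC1. KIF11 (chr10:92593286-92655395, plus strand), the Eg5 motor that slides antiparallel microtubules and drives the poles apart, had 117 CPM in DMSO, 105 at 1 µM and 40.7 at 5 µM. KIF15 (chr3:44761717-44873376, plus strand), a motor that can hold the spindle open beside Eg5, had 110, 118 and 51.5 CPM. KIFC1 (chr6:33391536-33409924, plus strand), which walks to minus ends and focuses poles, had 279, 222 and 58.2 CPM. All 3 were lowest at 5 µM, and KIF15 was not lower at 1 µM. At 5 µM the log2 fold changes were −1.52 (−1.61 to −1.43) for KIF11, −1.10 (−1.18 to −1.01) for KIF15 and −2.26 (−2.34 to −2.19) for KIFC1. They were −1.92, −1.33 and −1.79 with trends on GC content and length removed, so the order of KIF11 and KIFC1 depends on that setting. The exons of KIFC1 share 424 bases with the pseudogene RPL12P1 on the other strand, which itself had 38 to 45 counts.

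Those that move chromosomes were CENPE and KIF22. CENPE (chr4:103105806-103198409, minus strand), the kinetochore motor that carries chromosomes along the spindle to the equator, had 181 CPM in DMSO, 196 at 1 µM and 42.3 at 5 µM. KIF22 (chr16:29790719-29805385, plus strand), a chromokinesin that binds DNA and pushes chromosome arms away from the poles, had 77.0, 69.3 and 62.1 CPM. These 2 chromosome motors stood far apart at the higher dose, CENPE with −2.09 (−2.18 to −2.01) and KIF22 with −0.31 (−0.39 to −0.23). With trends on GC content and transcript length removed, KIF22 turned to 0.27. An antisense gene shares 561 bases with the exons of KIF22, and whether the counting used strand is not given in the sources used here.

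Microtubule ends are controlled by KIF2C, KIF18A and KIF18B. KIF2C (chr1:44739818-44767767, plus strand), MCAK, takes tubulin off the ends and corrects faulty kinetochore attachments, and had 182 CPM in DMSO, 134 at 1 µM and 25.2 at 5 µM. KIF18B (chr17:44924709-44947711, minus strand) shortens astral microtubules together with KIF2C, and had 58.5, 43.9 and 2.62 CPM, the last from 71 counts. KIF18A (chr11:28020620-28108308, minus strand) damps the swings of chromosomes at the equator, and had 21.2, 20.3 and 10.9 CPM. The pair that acts together on astral microtubules stood among the lowest, KIF2C at −2.84 (−2.96 to −2.73) and KIF18B at −4.46 (−4.84 to −4.14). KIF18B ranked 68 from the lowest of all 15655 genes. KIF18A, a close relative of KIF18B, was at −0.95 (−1.14 to −0.77), just short of 2-fold.

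Kinesins that act at the end of division were KIF14 and KIF20B. KIF14 (chr1:200551497-200620734, minus strand), which binds PRC1 and citron kinase at the central spindle and midbody, had 87.0 CPM in DMSO, 62.1 at 1 µM and 7.65 at 5 µM, the last from 207 counts. KIF20B (chr10:89701610-89774939, plus strand), a midbody motor needed for completing cytokinesis, had 113, 101 and 84.4 CPM. KIF14 ranked 226 from the lowest of all genes, at −3.50 (−3.72 to −3.31), and KIF20B was at −0.42 (−0.49 to −0.35). PRC1, the microtubule bundler that the study followed and that docks KIF14, had 35274, 34689 and 19824 counts, log2 fold changes of −0.05 at 1 µM and 0.28 at 5 µM.

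At 1 µM Reb the members differed little from DMSO. None of 10 was 2-fold lower, against 1.92% of all genes, and none 2-fold higher, against 1.28%. Their median was −0.16, that of all genes 0.00. The lowest values were −0.49 (−0.55 to −0.43) for KIF14, −0.44 (−0.48 to −0.40) for KIF2C and −0.41 (−0.49 to −0.34) for KIF18B. KIF15 at 0.10 (0.05 to 0.15) and CENPE at 0.12 (0.08 to 0.16) were above DMSO, and both went to slightly below it, −0.03 and −0.05, with trends on GC content and length removed. KIF18A at −0.06 (−0.18 to 0.05) could not be told from 0 at this depth.

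The difference between the doses was taken directly. At 5 µM 7 of 10 members were at least 2-fold below 1 µM, against 25.8% of all genes, and 0 at least 2-fold above, against 22.8%. The largest differences were those of KIF18B with −4.04 (−4.42 to −3.72) and KIF14 with −3.01 (−3.23 to −2.82). CENPE differed by −2.21 and KIF15 by −1.20, and KIF22 by −0.16 (−0.24 to −0.07), which turned to 0.26 with trends on GC content and length removed. KIF20B, at −0.25 (−0.32 to −0.18), stayed with KIF22 at the small end, as against DMSO.

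The main test across genes took both doses as 1 treated group, where the difference between the doses counts as the spread. By the quasi-likelihood test of edgeR, adjusted after Benjamini-Hochberg, 12 of 15655 genes were called, 0.0767%, and 0 of 10 members, whose adjusted p was 1.00 for every member. No member reached an unadjusted p of 0.05 there, while 228 genes did, and DESeq2 called 17 genes and 0 members. With dose as a linear term 3832 genes were called, 24.5%, among them KIF14, KIF18B, KIF2C, KIFC1 and CENPE. That fit has 1 residual degree of freedom and assumes a straight line in log2(dose + 1). Its calls used the adjusted p alone, without the 2-fold threshold, so their number cannot be set against those of the pooled test.

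Kinesins outside the group give the setting. Of 6 other mitotic kinesins listed, 5 were tested, with a median of −0.68 at 5 µM, 2 of them at least 2-fold lower. KIF24, a depolymerase of centrioles, had 739 counts in DMSO and 16 at 5 µM, and KIF20A, which carries the chromosomal passenger complex to the midzone, 8370 and 904, or −4.33 and −2.10. KIF4A (−0.68), KIF23 (0.08) and KIF2A (0.56), chosen after their values were seen, were not 2-fold apart from DMSO under TMM scaling, and KIF4A was under library totals (−1.37). Among 18 tested transport and other kinesins the median was 0.01, with 3 at least 2-fold lower and 3 at least 2-fold higher. Under library totals the median was −0.68, with 7 lower and 2 higher. Of all tested genes 27.2% were at least 2-fold lower and 23.6% higher at 5 µM, or 43.4% and 11.7% under library totals. KIF3C, a subunit of a plus-end cargo motor, was at −4.09 and KIF21A and KIF1B, motors of neurons and organelle transport, at 1.57 and 2.16. KIFC3 was below DMSO at both doses, at −0.70 and −0.37. KIF7 (−3.34), STARD9 (−1.26) and KIF9 (2.42), chosen after their values were seen, were the others.

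**Figure D4:**
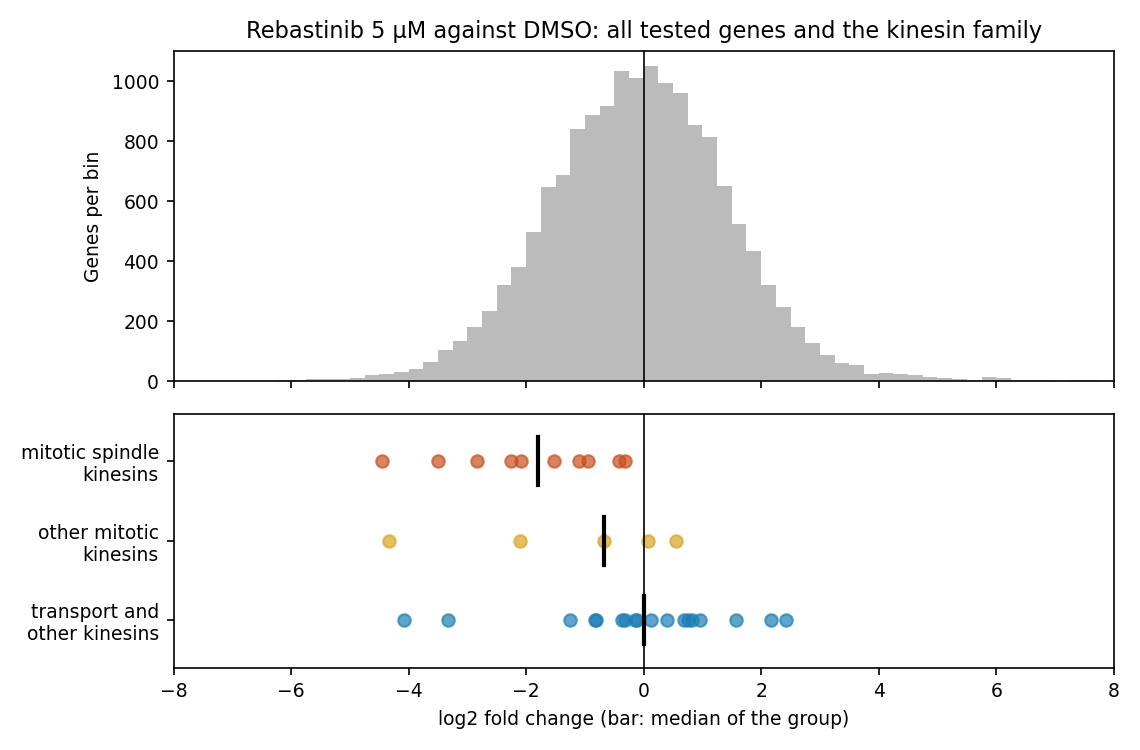
Log2 fold changes at 5 µM Reb against DMSO. The upper panel is a histogram of all 15655 tested genes (genes per bin of 0.25), the lower panel shows each tested kinesin as a point and the median of each group as a bar; the 10 spindle kinesins all lie below 0 with a median of −1.81, 5 other mitotic kinesins have a median of −0.68 and 18 transport and other kinesins one of 0.01.

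Proteins that work with these motors were taken as a list of 30, all tested. At 5 µM 18 of them were at least 2-fold lower and 2 at least 2-fold higher, with a median of −1.55. Of all tested genes 27.2% were at least 2-fold lower there and 23.6% at least 2-fold higher. AURKB, the Aurora B kinase that phosphorylates KIF2C at centromeres, had 3954 counts in DMSO, 1997 at 1 µM and 78 at 5 µM, or −1.01 and −4.54. PSRC1, another gene of this list, was at −0.85 and −3.08. MAPRE1, the end-binding protein EB1 that binds KIF18B at plus ends, was at 0.19 and 2.40, on the other side of its control from KIF18B. NEK6, a kinase that phosphorylates KIF11 on the way to the spindle, was at 0.45 and 0.99. Of 50 G2/M genes 32 were at least 2-fold lower and 2 at least 2-fold higher, with a median of −1.55. CDC20, the activator of anaphase, was at −0.89 and −1.17, and LBR and HN1 were higher, at 1.69 and 0.51 at 5 µM. Of 23 genes for the transcription of late cell cycle genes 9 were at least 2-fold lower and 1 at least 2-fold higher, with a median of −0.44. Under library totals the lower and higher counts were 22 and 2 of the partners, 39 and 1 of the G2/M genes and 13 and 1 of the last list. Of all tested genes 43.4% were then at least 2-fold lower and 11.7% higher. FOXM1, an activator of these promoters, was at −0.30 and −0.44, and RBL1, the pocket protein p107, at −0.39 and −2.05. NFYB, a subunit of the CCAAT-binding NF-Y, was at 0.31 and 0.22, and E2F6 at 0.18 and 0.73. Several genes stand in more than 1 of these lists, AURKB among them.

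Knockdown of CDK16 gave smaller differences. With CDK16-sh1 9 of 10 kinesins were below the scramble library, KIF14 by 2.71 times, CENPE by 2.18 and KIF15 by 2.07, and these 3 were at least 2-fold lower, against 6.86% of the 15295 genes tested. With CDK16-sh2 0 of 10 were at least 2-fold lower, against 7.62%, and the lowest were KIF14, 1.73 times below, and KIF18A, 1.58 times below. None was 2-fold higher with either hairpin, against 4.33% and 2.2% of all genes. The median of the members was −0.65 with CDK16-sh1 and −0.30 with CDK16-sh2, that of all genes 0.00 and 0.02. Summed over the members, 1007 CPM in the scramble library became 711 with CDK16-sh1 and 887 with CDK16-sh2, 70.5% and 88.0%. Both hairpins are compared with the same scramble library, so their values against it are not independent. With trends on GC content and length removed 0 of 10 members were 2-fold lower with CDK16-sh1. The share of all genes in that setting is not given here, so this count cannot be set against the 6.86%.

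Among the motors of the bipolar spindle, KIF11 had 117 CPM in the scramble library, 71.9 with CDK16-sh1 and 89.1 with CDK16-sh2. KIF15 had 61.3, 29.6 and 62.7 CPM, and KIFC1 had 196, 129 and 193. KIF11 was below the control with both hairpins, at −0.69 (−0.77 to −0.62) and −0.39 (−0.46 to −0.31), whereas KIF15 and KIFC1 were so with CDK16-sh1, at −1.05 (−1.17 to −0.94) and −0.60 (−0.66 to −0.54). With CDK16-sh2 the intervals of KIF15, at 0.03 (−0.07 to 0.13), and KIFC1, at −0.02 (−0.07 to 0.04), held 0 under TMM scaling. Under library totals these were −0.17 and −0.21, with the median of all genes at −0.18.

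CENPE had 109 CPM in the scramble library, 49.8 with CDK16-sh1 and 86.9 with CDK16-sh2, and KIF22 had 99.0, 87.7 and 82.0. CENPE, the kinetochore motor, was at −1.12 (−1.21 to −1.04) and −0.32 (−0.40 to −0.24), and KIF22 at −0.18 (−0.25 to −0.10) and −0.27 (−0.36 to −0.19). The value of CENPE with CDK16-sh2 became 0.00 with trends on GC content and length removed.

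Of those that control microtubule ends, KIF2C had 178 CPM in the scramble library, 192 with CDK16-sh1 and 182 with CDK16-sh2, the single member not below its control with CDK16-sh1. KIF18A had 29.5, 19.7 and 18.6 CPM, at −0.58 (−0.73 to −0.43) and −0.66 (−0.83 to −0.50). KIF18B, the lowest member at 5 µM Reb, had 88.2, 68.7 and 86.9 CPM, at −0.36 (−0.44 to −0.28) and −0.02 (−0.11 to 0.06). KIF2C was at 0.11 (0.06 to 0.17) and 0.04 (−0.02 to 0.10). This pair, both far below DMSO at 5 µM Reb, thus lay between −0.36 and 0.11 in the knockdown libraries, which were scaled separately. KIF18B was at −0.60 with CDK16-sh1 once trends on GC content and length were removed.

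Of the motors at the end of division, KIF14 had 46.8 CPM in the scramble library, 17.3 with CDK16-sh1 and 27.1 with CDK16-sh2, and KIF20B had 83.6, 44.4 and 57.5. KIF14 was the lowest member with each hairpin, at −1.44 (−1.59 to −1.30) and −0.79 (−0.93 to −0.65). KIF20B was at −0.91 (−1.01 to −0.82) and −0.54 (−0.64 to −0.44), beside −0.42 at 5 µM Reb under TMM scaling and −1.11 there under library totals. PRC1, the partner of KIF14, had 8622, 6584 and 7323 counts, or −0.67 and −0.13.

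Between the hairpins the members differed as well. With CDK16-sh2 KIF15 was 2.11 times higher than with CDK16-sh1, at 1.08 (0.97 to 1.20), the single member at least 2-fold higher, against 6.53% of all genes, and 0 of 10 were at least 2-fold lower, against 8.68%. CENPE was 0.80 (0.71 to 0.89) higher, KIF14 0.65 (0.49 to 0.81) and KIFC1 0.58 (0.52 to 0.64). KIF18A at −0.08 (−0.26 to 0.09) could not be told apart between the hairpins, and KIF2C and KIF22 were at −0.08 and −0.10. KIF18A was at −0.33 and KIF22 at 0.14 with trends on GC content and length removed. CDK16 was lower with CDK16-sh2, the hairpin with the smaller median difference of the members. Under library totals KIF15 was no longer 2-fold apart, and 0 of 10 members were. The share of all genes between the hairpins under that scaling is not given here.

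In the fit across genes with both hairpins as 1 group, 0% of 15295 genes were called by edgeR's quasi-likelihood test (382 genes had an unadjusted p under 0.05), and DESeq2 called 0 as well (233 genes). KIF14, with a log2 fold change of −1.08 and an unadjusted p of 0.040, was the single member under 0.05, and the adjusted p was 1.00 for all 10 members. Here the difference between the hairpins counts as the spread.

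The members separate by base composition. The longest transcripts of KIF20B, CENPE, KIF18A, KIF11, KIF14 and KIF15 have 34.2% to 41.2% GC, and those of KIF2C, KIFC1, KIF18B and KIF22 50.4% to 58.9%. With CDK16-sh1 the 6 of low GC lay between −1.44 and −0.58, with a median of −0.98, and the 4 of high GC between −0.60 and 0.11, with a median of −0.27. Over 15161 genes with a known GC content the log2 fold change of CDK16-sh1 went with GC (Pearson r = 0.44), and over the 10 members r was 0.68; the points share the same 2 libraries. With CDK16-sh2 r was 0.12 over all genes and 0.64 over the members. At 1 µM Reb r was −0.30 over all genes and −0.47 over the members. The median of the 4 members of high GC was −0.37 there, that of the 6 of low GC −0.10. At 5 µM Reb r was −0.20 over all genes, and the median of the 4 members of high GC was −2.55, that of the 6 of low GC −1.31. With trends on GC content and length removed, the median of the members with CDK16-sh1 was −0.50. Of the 6 of low GC, KIF14 was then at −0.93, KIF15 at −0.70, CENPE at −0.54, KIF20B at −0.39, KIF11 at −0.27 and KIF18A at −0.14, all closer to 0 than as counted. Of the 4 of high GC, KIFC1 was at −0.93, KIF18B at −0.60 and KIF22 at −0.45, all further from 0, and KIF2C at 0.05. The part of GC content in the values as counted was not tested further.

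**Figure D5:**
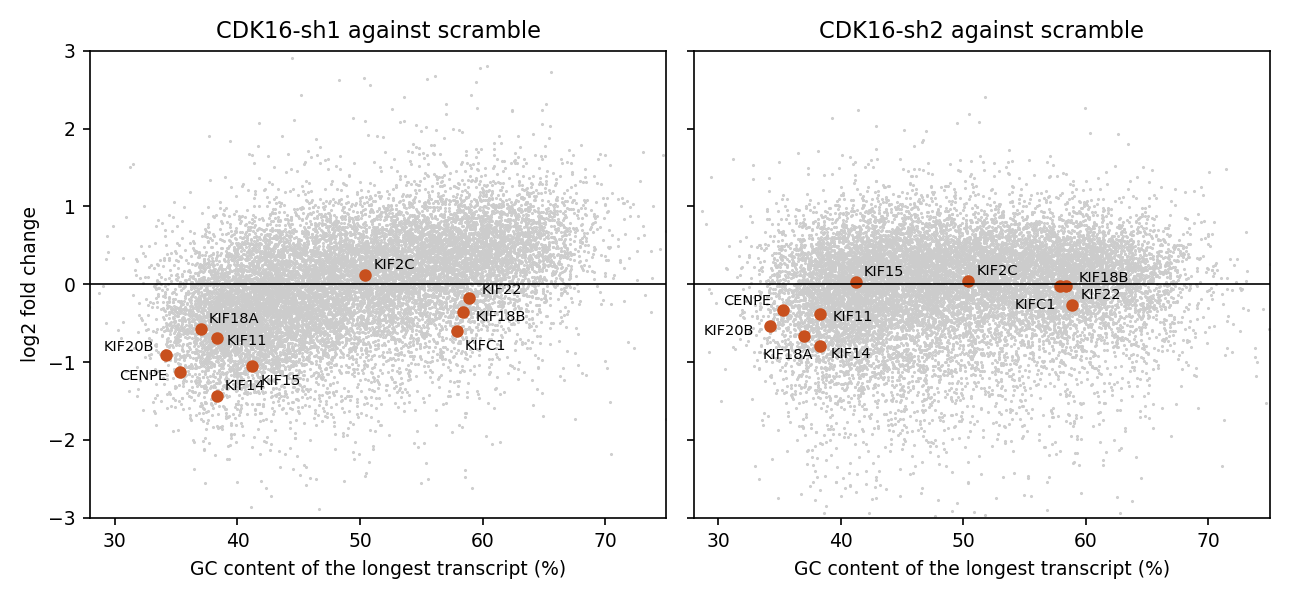
Log2 fold change with CDK16-sh1 (left) and CDK16-sh2 (right) against the GC content of the longest transcript, in percent. Grey points are the tested genes within the axes and orange points the 10 kinesins; the cloud slopes upward with CDK16-sh1 (r = 0.44 over all genes) and hardly with CDK16-sh2 (r = 0.12), and the 6 kinesins of low GC lie to the left and mostly lower.

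Kinesins outside the group differed from the scramble library as well. The 5 tested other mitotic kinesins had medians of −0.79 with CDK16-sh1 and −0.35 with CDK16-sh2, and all 5 were below 0 in both. KIF2A, a depolymerase at spindle poles, was at −0.79 and −1.20, and KIF23, the motor of centralspindlin, at −0.80 and −0.36. Transport and other kinesins, 17 tested, had medians of −0.52 and −0.16. With CDK16-sh1 4 were at least 2-fold lower and 1 higher, KIF6 with 59 counts against 20, named after its value was seen, and 5 of 17 lay above 0. With CDK16-sh2 1 was at least 2-fold lower and 0 higher, and 7 of 17 lay above 0. Of all tested genes 6.86% and 7.62% were at least 2-fold lower with the 2 hairpins, and 4.33% and 2.2% higher. KIF1C was at −0.92 and −2.71 and KIF5B, the heavy chain of conventional kinesin, at −1.61 and −0.57. KIF5B with CDK16-sh1 and KIF1C with CDK16-sh2 were further below the scramble library than any member. KIFC3 was above it, at 0.27 and 0.43, and so was STARD9, at 0.24 and 0.35.

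The 30 motor partners had medians of −0.56 and −0.15 with the hairpins, with 2 and 1 at least 2-fold lower and 0 higher. Past 2-fold lower lay 6.86% and 7.62% of all tested genes, and past 2-fold higher 4.33% and 2.2%. SGO2, the shugoshin that brings KIF2C to centromeres, was at −0.78 and −0.94, and MKI67, the Ki-67 protein that binds KIF15, at −0.74 and −0.80. KIZ, a centrosome protein, was at 0.19 (−0.05 to 0.43) and 0.35 (0.11 to 0.60). The 50 G2/M genes had medians of −0.52 and −0.28, with 8 and 5 at least 2-fold lower, TOP2A (−1.25 and −1.26) and SMC4 (−1.44 and −1.12) among them, and HN1 was higher, at 0.70 and 0.44, as was CKS2, at 0.24 and 0.06, the latter with an interval that held 0. The 23 genes for the transcription of late cell cycle genes had medians of 0.00 and −0.37, with 6 and 5 at least 2-fold lower. LIN54, the MuvB subunit that binds the CHR, was at −1.29 and −1.09, RBL1 at −1.08 and −1.28, NFYC at 0.43 and 0.46 and E2F5 at 0.89 and 0.37.

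Over the 4 comparisons the members differed among themselves. The distance of a gene from the median of the members was taken over its 4 log2 fold changes. Of the members KIF11 was nearest, at 0.31, KIFC1 followed at 0.56 and CENPE at 0.62, and KIF14 and KIF18B were farthest, at 1.96 and 2.69. The distance was taken for 10554 genes averaging 5 CPM or more in both experiments, genes of the lists included. Outside the lists PDHB (0.171), TRANK1 (0.186), SP1 (0.220), SMARCAD1 (0.223) and MACF1 (0.236) were nearest. Each was closer to the median than any member was. As they were picked as the smallest distances among so many genes, this does not show how alike the members are.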

How the data were processed

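Gene symbols, counts and RPKM values were taken from the deposited tables of 6 libraries. The authors deposited whole-number read counts per gene, not normalized, and RPKM values that equal these counts over gene length and library total. The submitters' processing notes name Trimmomatic, featureCounts, Subread 1.5.1 and GRCh38; the aligner, annotation and strand setting are not given in the sources used here. No file held columns of other samples. The authors sequenced on a HiSeq X.

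Genes averaging 1 CPM or more in an experiment were kept, 15295 and 15655, and scaled by TMM in edgeR 4.0.16 (R 4.3.3) with a prior count of 2. The threshold was 2-fold, or an adjusted p of at most 0.05 with at least 2-fold in the pooled tests. With dose as a linear term it was an adjusted p of at most 0.05 at any fold. DESeq2 1.42.0, other scalings, a prior count of 0.5, RPKM with 0.1 added, no filter, trends on GC content and length removed (mgcv 1.9.3) and a 1.5-fold threshold were alternatives. The pooled edgeR test and the TMM-scaled fold change were tried on simulated counts, and the other steps were not. GC content came from GENCODE transcripts and promoters from RefSeq. For KIF22, which has 2 windows there, the first was used. As the reads carried no molecular identifiers, copies of 1 molecule could not be separated, and intervals cover counting error only.

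The named genes were the 10 members, CDK16 and PRC1, and from each list the 2 largest falls and rises in each experiment among genes averaging 5 CPM or more, in order of the smaller absolute change, for genes that moved the same way in both treated libraries, and the 5 genes nearest to the members' median. Members and lists were chosen with earlier results of these data known.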

Additional observations from a re-analysis of the deposited data

Results flagged for a closer look

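KIF15 and CENPE lay on opposite sides of DMSO at the 2 doses of Reb, slightly above it at 1 µM (0.10 and 0.12) and below it at 5 µM (−1.10 and −2.09). The difference between the doses, 5 µM minus 1 µM, was −1.20 for KIF15 and −2.21 for CENPE on the log2 scale. All 4 counting intervals left out 0, but with 1 library per dose the difference was not tested. With trends on GC content and length removed, both genes lay below DMSO at 1 µM as well, at −0.03 and −0.05.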

How the results depend on the processing

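No median or count of the members changed its direction under any alternative run. With trends on GC content and length removed, the members' median was −0.50 with CDK16-sh1, −0.13 with CDK16-sh2 and −0.25 at 1 µM Reb, and 0 members were 2-fold lower with CDK16-sh1. Under library totals, library totals without mitochondrial transcripts and RPKM, the median was −0.49, −0.41 and −0.49 with CDK16-sh2, −0.11, −0.0922 and −0.11 at 1 µM, and −2.50, −2.34 and −2.47 at 5 µM, and with no filter on low counts −2.01 at 5 µM. Members 2-fold lower at 5 µM numbered 7 to 9 over these settings. At 5 µM the shares of all genes are given above for TMM scaling and library totals only. With the trends removed no such share is given, so the counts of members there cannot be read as a difference from all genes. With a 1.5-fold threshold, 6 members were lower with CDK16-sh1 and 2 with CDK16-sh2. The share of all genes past 1.5-fold is not given here, so these counts cannot be read as a difference from all genes. Dose as a linear term called 5 members where the pooled Reb test called 0, and library totals ended all 12 calls of that test over all genes. Calls of the linear term used the adjusted p alone, without the 2-fold threshold, so its count of members cannot be set against that of the pooled test. DESeq2 size factors and a prior count of 0.5 moved no single member by more than its counting interval. Against the control, the sign of single members turned for KIF15 and KIF2C with CDK16-sh2 under both totals and RPKM (−0.17 and −0.16 under totals), for CENPE with CDK16-sh2 and KIF15, CENPE and KIF22 at 1 µM and KIF22 at 5 µM with the trends removed, and for KIF18A at 1 µM under totals without mitochondrial transcripts (0.01). With the trends removed KIF22 also turned in both direct comparisons, to 0.26 for 5 against 1 µM and to 0.14 between the hairpins. Depth limits KIF18B most, with 71 counts at 5 µM. No paired analysis was possible because each condition had 1 library, and no library could be left out.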
